A study of Homo sapiens with 12 samples.

Results

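The 46 genes described here encode proteins of homologous recombination, of the Fanconi anaemia pathway and of the DNA damage checkpoint. They were chosen by name from a fixed list, and all 46 were found among the 60648 genes of the deposited table by matching Ensembl identifiers to symbols. All 46 also passed the filter on low counts, which 18289 genes passed in total. RNA was sequenced from HCT116 cells, a mismatch repair deficient line from a human colon carcinoma, in 4 groups of 3 poly-A selected libraries. The groups were wild type (MTHFD2-WT) and knock-out (MTHFD2-KO) cells, each at an initial harvest (Time0) and at a final harvest (TimeFinal) taken 2 months later in culture. MTHFD2 is a folate enzyme of one-carbon metabolism, and the title of the study links it to chromosome stability. The knock-out was made with CRISPR-Cas9 and is 1 isolated clone, so effects of losing MTHFD2 and traits peculiar to the clone cannot be told apart. The labels do not say whether replicates are separate cultures, so the p-values measure the spread between these libraries, which may be technical.

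Homologous recombination copies a broken DNA stretch from the sister chromatid and is used mainly in S and G2 phase. The MRE11-RAD50-NBN complex and RBBP8 (CtIP) start the trimming of DNA ends, BRCA1, BARD1, PALB2 and BRCA2 act in the steps that follow, and XRCC2, XRCC3 and the RAD54 proteins assist strand exchange. The Fanconi core complex attaches ubiquitin to FANCD2 and FANCI at crosslinks between DNA strands, and nucleases then cut the crosslink or the joint molecules left by recombination. The kinases ATM and ATR, with CHEK2 and CHEK1 below them, halt the cell cycle at damaged or unreplicated DNA.

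The libraries held 38597809 to 40017561 counts each, and the lowest count of any of the 46 genes in a library was 164. MTHFD2 had 413 ± 41.2 CPM in the initial and 355.5 ± 32.4 CPM in the final wild type, against 137 ± 9.1 and 137.0 ± 16.7 CPM in the knock-out (SD, n = 3), so its RNA was lower in every knock-out library but not absent. CPM here are counts as a share of the library total on the usual CPM scale, after TMM scaling, a composition correction of edgeR. Of 11 markers of colon epithelium, 6 (EPCAM, CDH1, KRT8, KRT18, KRT19 and CDX2) were above 1 CPM in all 12 libraries, while CDX1, VIL1, KRT20, LGR5 and CEACAM5 stayed below 1 CPM. The summed colon markers ran from 2210 to 2700 CPM in the knock-out and from 2620 to 3230 CPM in the wild type. The leukocyte markers PTPRC and CD3E held at most 2 and 0 counts in a library. Of 6 fibroblast markers, COL1A1 alone was above 1 CPM in all libraries and DCN and LUM held 0 counts, and the summed list ran from 37.5 to 59.3 CPM in the knock-out and from 56.8 to 78.8 CPM in the wild type. The part of these markers in the results was not tested.

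Promoters are shown for the 3 genes raised most and the 1 gene lowered among those that passed in the genotype comparison averaged over both harvests and whose promoter was matched. They are taken from RefSeq (GRCh38.p14), run 5′ to 3′ on the strand of the gene, and span 250 bases before to 50 bases after the annotated start. Capitals mark matches to an E2F motif, searched as TTTNNCGC, or to the NF-Y motif CCAAT, each on both strands.
ATR (chr3:142578684-142578983, minus strand): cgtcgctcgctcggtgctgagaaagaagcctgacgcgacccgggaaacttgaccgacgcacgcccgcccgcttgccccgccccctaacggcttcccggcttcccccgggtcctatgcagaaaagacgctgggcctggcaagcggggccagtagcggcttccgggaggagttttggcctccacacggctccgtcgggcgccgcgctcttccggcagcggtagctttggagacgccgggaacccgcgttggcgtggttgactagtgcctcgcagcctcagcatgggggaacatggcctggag
XRCC3 (chr14:103715402-103715701, minus strand): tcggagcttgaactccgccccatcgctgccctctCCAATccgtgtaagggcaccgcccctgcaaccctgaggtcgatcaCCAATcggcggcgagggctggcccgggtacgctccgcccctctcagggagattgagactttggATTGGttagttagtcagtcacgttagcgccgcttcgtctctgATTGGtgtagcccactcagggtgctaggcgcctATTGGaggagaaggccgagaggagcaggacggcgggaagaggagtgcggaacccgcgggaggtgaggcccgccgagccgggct
XRCC2 (chr7:152676092-152676391, minus strand): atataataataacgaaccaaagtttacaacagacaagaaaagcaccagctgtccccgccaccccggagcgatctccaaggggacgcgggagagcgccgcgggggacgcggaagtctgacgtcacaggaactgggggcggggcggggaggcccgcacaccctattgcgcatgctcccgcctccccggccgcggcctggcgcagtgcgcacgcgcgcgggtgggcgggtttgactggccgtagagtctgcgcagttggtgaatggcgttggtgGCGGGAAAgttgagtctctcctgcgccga
RBBP8 (chr18:22933078-22933377, plus strand): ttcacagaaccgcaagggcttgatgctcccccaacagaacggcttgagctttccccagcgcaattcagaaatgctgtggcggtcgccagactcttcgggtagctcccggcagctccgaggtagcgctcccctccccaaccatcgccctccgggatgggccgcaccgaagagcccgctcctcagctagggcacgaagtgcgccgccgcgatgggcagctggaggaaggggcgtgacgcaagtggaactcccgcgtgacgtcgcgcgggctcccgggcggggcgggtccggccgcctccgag

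XRCC3 carried 5 CCAAT matches in this window, and 0.359% of the 35116 promoters of the table carried at least as many. XRCC2 carried 1 E2F match, and ATR and RBBP8 carried neither motif in their windows. The RBBP8 window starts at base 22933078, inside the deposited gene, which starts at base 22798261. It therefore belongs to an internal annotated start of RBBP8. Promoters were matched for 42 of the 46 genes. CCAAT was present in 18 of them (42.9%, against 34.6% of all promoters), the E2F motif in 6 (14.3% against 6.89%), the cell cycle homology region TTTGAA in 6 (14.3% against 15.2%) and the GC box GGGCGG in 30 (71.4% against 45.0%). The ATF4 composite element TGATGNAA was found in 0 of the 42 and in 3.62% of all promoters. RAD54B, RMI2, FANCI and NBN were not matched. A match describes letters in a window and does not show that a factor binds there.

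Levels were compared between genes per kilobase of the deposited gene length, which joins the exons of all annotated isoforms. On this scale the 46 genes had a median of 5.98 CPM per kb over the 12 libraries, against 2.69 CPM per kb over all tested genes, and 35 of the 46 lay above that median. UBE2T, the ubiquitin-conjugating enzyme of the Fanconi pathway, was highest at 36.8 CPM per kb, followed by the core subunit FANCG at 21.45, RBBP8 at 19.1, FANCA at 16.6 and FANCI at 15.4 CPM per kb. The lowest levels were 0.368 CPM per kb for the nuclease FAN1, 0.643 for RAD50, 0.771 for RAD51B, 0.898 for ERCC4 (XPF) and 1.22 for the topoisomerase TOP3A. ATM, at 1.79 CPM per kb, has a deposited length of 39184 bases, which lowers its level on this scale. RAD50 shares 76.9% of its exon bases with a gene on the same strand, ENSG00000283782, which held 0 counts in every library, so the level of RAD50 per length is uncertain. RAD54B likewise shares 66.0% of its exon bases with FSBP on the same strand.

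**Figure D1:**
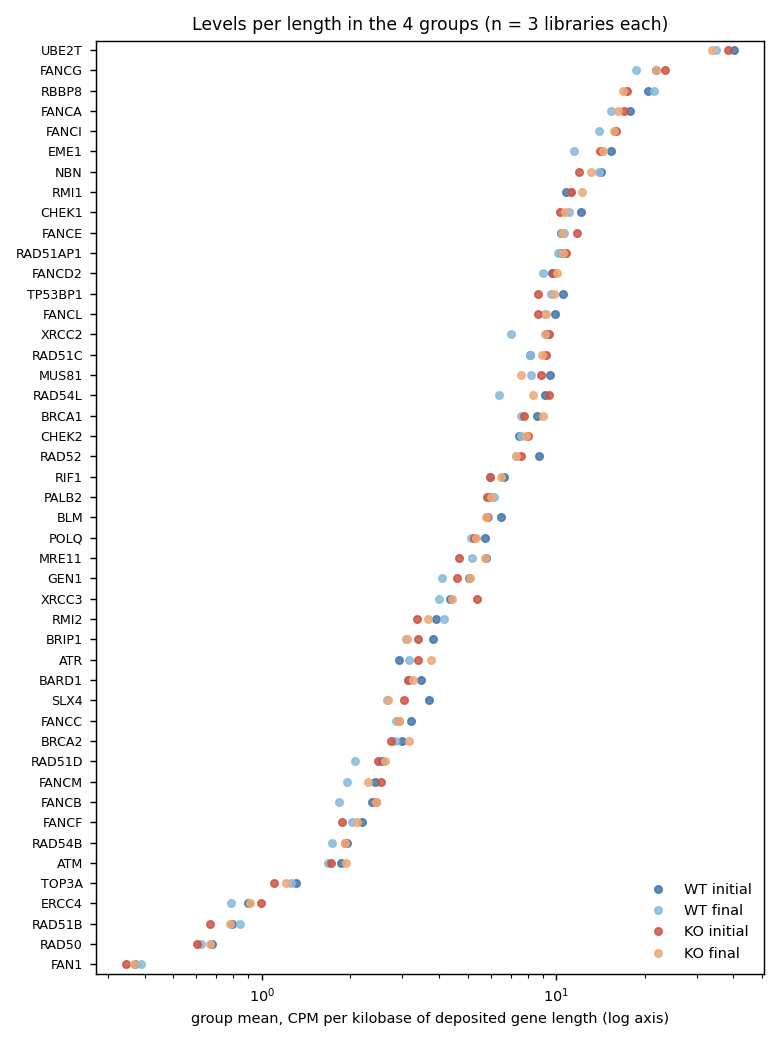
Group means (n = 3 libraries) of each of the 46 genes on a log axis in CPM per kilobase of deposited length, ordered by the mean of all 12 libraries, with 1 point per group. The levels span from 0.368 for FAN1 to 36.8 for UBE2T, while the 4 groups of each gene lie close together.

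Group means of each of the 46 genes differed by less than 1.5-fold. The ratio of the highest to the lowest of the 4 group means had a median of 1.18 over the 46 genes and was largest for RAD54L, at 1.48. The same ratio was not computed over all tested genes. The change over time in the wild type, where most of the 46 genes were lower, is given below. Averaged over both harvests, 7 of the 46 genes (15.2%) differed between knock-out and wild type in edgeR's quasi-likelihood test at an adjusted p-value under 0.05, against 30.1% of all tested genes. Below, passed refers to this test on all 12 libraries. XRCC2, XRCC3, RAD54L, ERCC4 and ATR were higher in the knock-out, and NBN and RBBP8 were lower. The other 39 genes did not pass, with log2 fold changes between -0.20 and 0.235. The median absolute log2 fold change of the 46 genes was 0.09 in this comparison and 0.17 over all tested genes. All tested genes had a lower median level per length, and the part of level in this difference was not tested. Over all comparisons 33 of the 46 genes did not pass, and 15 of these 33 passed in at least 1 alternative analysis, BRIP1 in DESeq2. The share of all tested genes that passed in at least 1 comparison was not counted. Counts over all comparisons, here and by role below, therefore have no background beside them. The averaged count was 4 without the initial wild-type replicate 3, the initial knock-out replicate 1 or the final knock-out replicate 2.

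At the initial harvest 3 of the 46 genes (6.52%) passed, against 19.9% of all tested genes (8.55% higher, 11.3% lower): XRCC3 was higher in the knock-out, and NBN and TP53BP1 were lower. At the final harvest 6 (13.0%) passed, against 18.5% of all tested genes (8.38% higher, 10.2% lower): BRCA1, RAD51D, XRCC2, RAD54L and FANCB were higher and RBBP8 was lower. No gene passed at both harvests. The median log2 fold change of the 46 genes was -0.12 at the initial harvest, with 15 genes above 0, and 0.07 at the final harvest, with 34 above 0, while the medians over all tested genes were 0.00 at both. Without the initial wild-type replicate 1 the initial median was -0.03 with 18 above 0, and after GC and length correction it was -0.04 with 20 above 0. The final median was 0.04 without the final wild-type replicate 2 and 0.12 without the final knock-out replicate 3. At the initial harvest 16 of the 46 genes had group ranges that did not overlap, 13 of them lower in the knock-out (35.5% of all tested genes in either direction, 18.4% lower), and at the final harvest 10 had, 9 of them higher (33.1% in either direction, 15.9% higher). The initial count was 0 when any one of 3 libraries was left out (wild-type replicate 3 and knock-out replicates 1 and 2 of that harvest) and 0 without wild-type replicates 1 and 2 of that harvest together. It was 1 without the initial knock-out replicate 3 or the final wild-type replicate 2, and 8 when wild-type replicate 2 of that harvest was left out. The final count was 3 without the final wild-type replicate 2 and 2 without the final wild-type replicate 3.

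**Figure D2:**
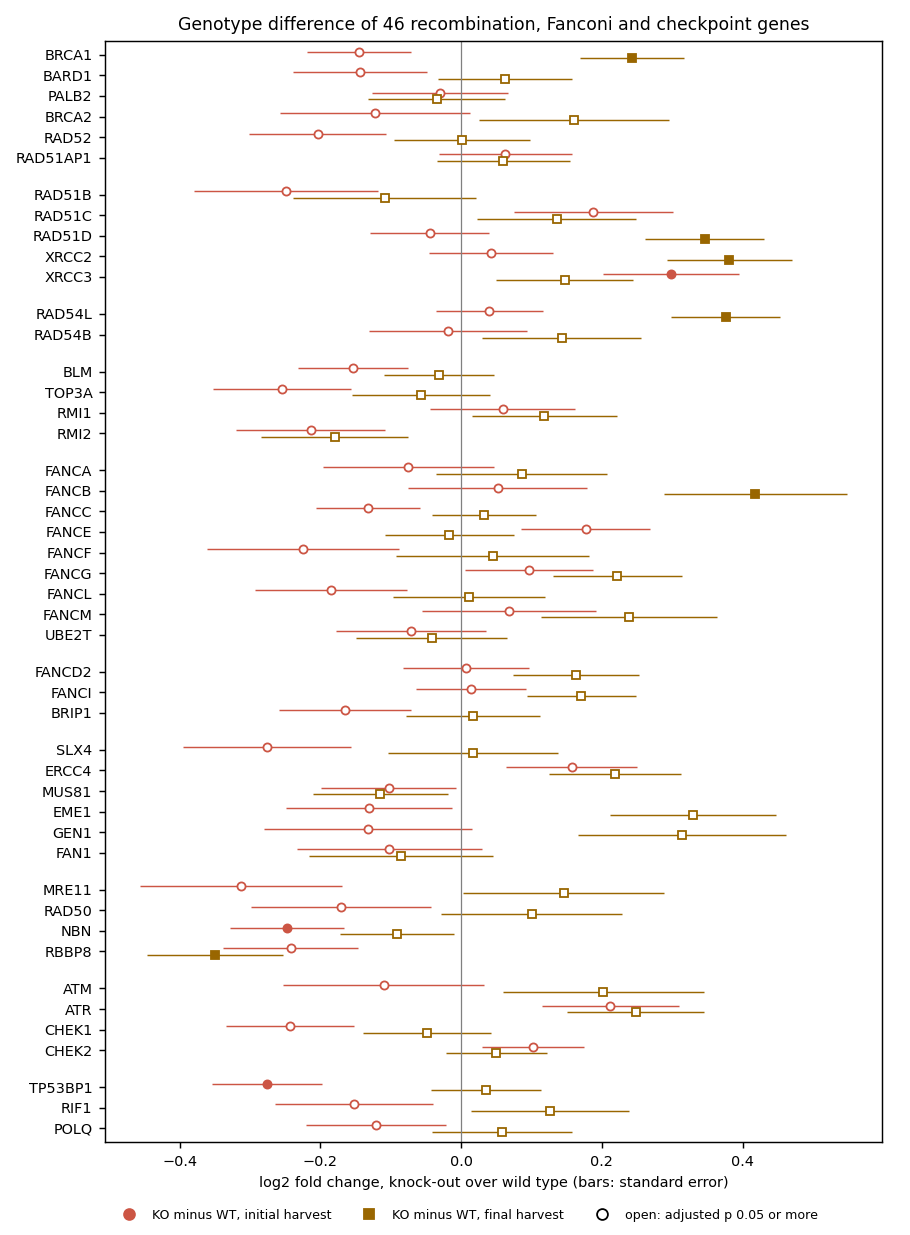
Log2 fold change of knock-out over wild type at the initial (circles) and final (squares) harvest for the 46 genes, grouped by role, with standard errors from edgeR. Filled symbols mark an adjusted p-value under 0.05, which 3 genes reached initially and 6 finally, and every value lies between -0.35 and 0.42.

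Among the 6 genes of the BRCA complexes and their helpers, BRCA1 alone passed a test. BRCA1 (ENSG00000012048.23, hg38 chromosome 17, 43044295 to 43170245, minus strand), which with BARD1 forms a ubiquitin ligase that promotes end resection, had 76.6, 83.4 and 79.9 CPM in the initial wild type and 75.2, 68.6 and 68.3 CPM in the final wild type. In the knock-out it had 71.8, 73.9 and 71.2 CPM initially and 88.3, 79.5 and 83.2 CPM at the final harvest. The knock-out lay below the wild type in all libraries of the initial harvest and above it in all libraries of the final harvest. Its initial log2 fold change was -0.15 (SE 0.07, adjusted p 0.19), and its final one was 0.24 (SE 0.07, adjusted p 0.0296). The final call was lost in 7 of 20 alternatives: without the final wild-type replicate 2 or 3, the initial knock-out replicate 1, or the final knock-out replicate 1 or 3 (adjusted p 0.0549 to 0.151), with no filter (0.144) and with only the groups compared (0.0574). BRCA1 had the smallest adjusted p of the 46 genes in the interaction of genotype and harvest, 0.0943, with a log2 difference of 0.39 (SE 0.10), which did not pass in edgeR.

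The other 5 genes of that group did not pass in any comparison. BARD1, the partner of BRCA1, had genotype log2 fold changes of -0.14 and 0.06 at the initial and final harvest. PALB2, which bridges BRCA1 and BRCA2, had -0.03 and -0.03. BRCA2, the partner of PALB2 in recombination, had -0.12 and 0.16. RAD52, an annealing protein, had -0.20 and 0.00, and RAD51AP1, which stimulates strand pairing, had 0.06 and 0.06. BRCA2 varied more within groups than most of the set, with a within-group coefficient of variation of 13.9% against a median of 8.40%, and its initial wild-type libraries ran from 29.97 to 47.2 CPM.

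Of RAD51B, RAD51C, RAD51D, XRCC2 and XRCC3, which form complexes that assist strand exchange, 3 of 5 passed in some comparison. XRCC2 (ENSG00000196584.3, chromosome 7, 152644776 to 152676141, minus strand) had 46.5, 42.6 and 44.4 CPM in the initial and 34.4, 33.0 and 34.7 CPM in the final wild type. The knock-out had 47.1, 45.1 and 45.2 CPM initially and 43.3, 50.4 and 39.3 CPM at the final harvest. The 3 final wild-type libraries were thus below the other 9 libraries. The initial genotype difference was 0.04 (SE 0.09, adjusted p 0.791) and the final one 0.38 (SE 0.09, adjusted p 0.00586), a fold of 1.30. It passed at the final harvest under every one of 20 alternatives run, with adjusted p-values up to 0.0391.

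RAD51D (ENSG00000185379.21, chromosome 17, 35092221 to 35121522, minus strand), which binds XRCC2 in the same paralog complex, was lowest in the same group. It had 29.8, 28.3 and 28.4 CPM in the initial wild type, 24.9, 22.9 and 22.2 CPM in the final wild type. The knock-out had 29.9, 27.1 and 26.9 CPM initially and 27.7, 31.6 and 29.6 CPM finally. The final wild-type libraries were again below the other 9. The final genotype difference was 0.35 (SE 0.08, adjusted p 0.00789), and it was lost only without the final wild-type replicate 3 (adjusted p 0.051).

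XRCC3 (ENSG00000126215.14, chromosome 14, 103697609 to 103715504, minus strand), the partner of RAD51C, had 30.4, 34.2 and 33.9 CPM in the initial wild type against 42.6, 40.3 and 38.2 CPM in the initial knock-out, with no overlap. At the final harvest the wild type had 32.2, 30.4 and 27.4 CPM and the knock-out 29.7, 37.3 and 32.5 CPM, which overlapped. XRCC3 differed by 0.30 on the log2 scale (SE 0.10, adjusted p 0.0396) initially, by 0.15 (adjusted p 0.345) finally and by 0.22 (SE 0.07, adjusted p 0.0215) on average. The initial call was lost without the initial wild-type replicate 1 or 3, the final wild-type replicate 2 or any one of the initial knock-out libraries (adjusted p 0.0533 to 0.135), and with no filter (0.0512). The averaged call was lost without the final wild-type replicate 3, the initial knock-out replicate 1 or the final knock-out replicate 2 (adjusted p 0.0609 to 0.0661). Exons of KLC1, a kinesin light chain on the other strand, cover 76.7% of the exon bases of XRCC3, and the strand setting of the counting is not stated. KLC1 had log2 fold changes of 0.22 (adjusted p 0.146) and 0.16 (adjusted p 0.306) at the initial and final harvest, and its part in the values of XRCC3 was not tested.

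RAD51B and RAD51C did not pass in any comparison. RAD51B had log2 fold changes of -0.25 and -0.11 at the initial and final harvest at a level of 0.771 CPM per kb, and RAD51C had 0.19 and 0.14.

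RAD54L had the smallest p-value of the 46 genes in the final genotype comparison and over time in the wild type. RAD54L (ENSG00000085999.13, chromosome 1, 46246461 to 46278480, plus strand), a DNA translocase of strand invasion, had 39.2, 38.2 and 35.0 CPM in the initial and 26.5, 25.2 and 26.6 CPM in the final wild type. The knock-out had 40, 37.6 and 38.0 CPM initially and 34.0, 35.2 and 32.4 CPM at the final harvest. The final libraries were below the initial libraries in both genotypes, and the final wild type was below every other library. The genotype difference of RAD54L was initially 0.04 (SE 0.08, adjusted p 0.769) and finally 0.38 (SE 0.08, adjusted p 0.00235), and the final call held in all 20 alternatives (adjusted p up to 0.0207). LRRC41, on the other strand over 19.9% of the exon bases of RAD54L, had -0.37 (adjusted p 0.00132) initially and -0.47 (adjusted p 0.000129) finally. Over time in the wild type LRRC41 had 0.08 (adjusted p 0.592). The part of LRRC41 in the values of RAD54L was not tested. RAD54B, the paralog of RAD54L, had genotype differences of -0.02 and 0.14 and did not pass.

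**Figure D3:**
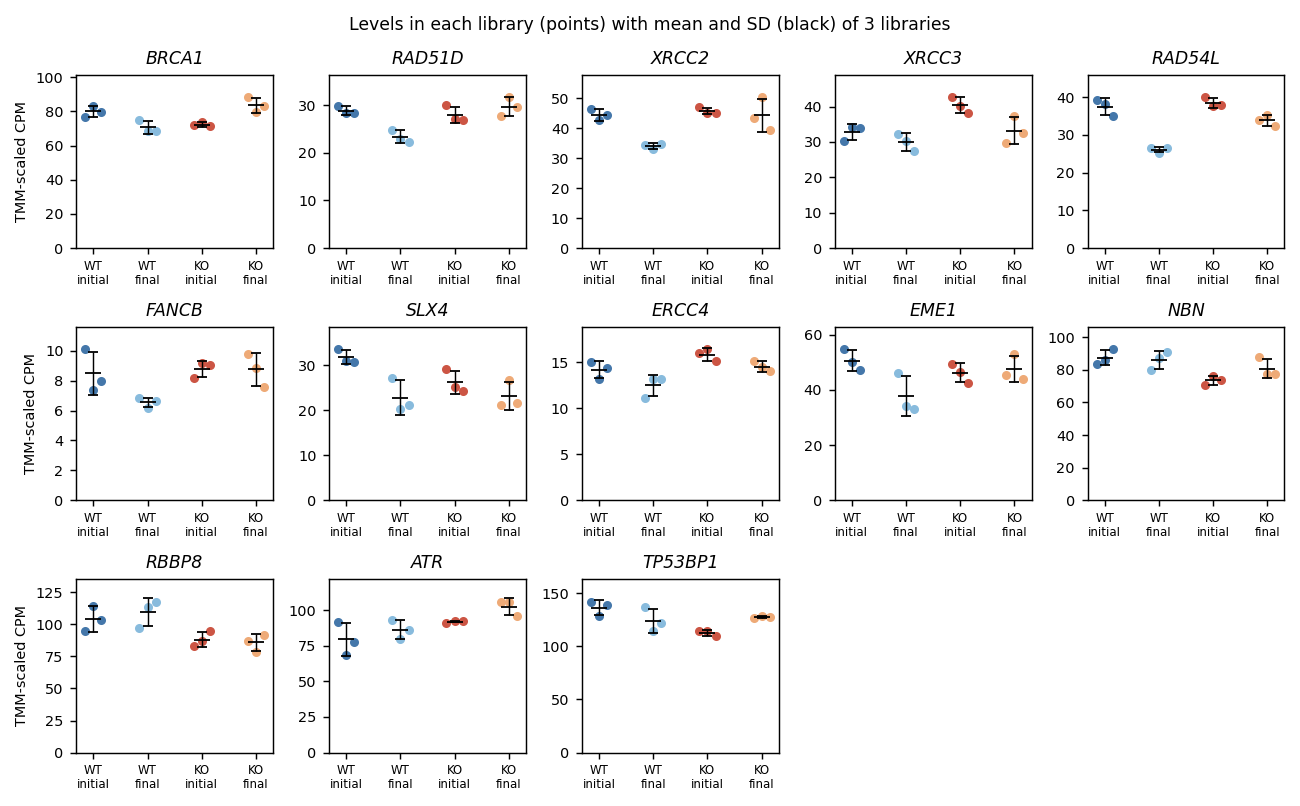
TMM-scaled CPM in each of the 12 libraries (points) for the 13 genes that passed a test in at least 1 comparison, with mean and SD of each group of 3 in black and axes that start at 0. For RAD51D, XRCC2 and RAD54L the 3 final wild-type libraries lie below all other libraries, and for RBBP8 the knock-out libraries lie below the wild-type libraries of the same harvest.

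The complex that dissolves double Holliday junctions, made of the BLM helicase, the topoisomerase TOP3A and the accessory proteins RMI1 and RMI2, had 0 of 4 genes that passed in any comparison. Its genotype log2 fold changes ran from -0.26 to 0.06 at the initial harvest and from -0.18 to 0.12 at the final harvest. TOP3A was lower in all 3 initial knock-out libraries, at 9.0, 9.30 and 8.80 CPM against 10.4, 12.1 and 9.84 CPM in the wild type, but did not pass (log2 fold change -0.26, SE 0.10, adjusted p 0.0813). RMI2 had -0.21 and -0.18 at the initial and final harvest and an averaged difference of -0.20 (SE 0.08, adjusted p 0.0571).

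In the Fanconi core complex and its ubiquitin-conjugating enzyme, 1 of 9 genes passed in any comparison. FANCB (ENSG00000181544.15, chromosome X, 14835961 to 14873069, minus strand), a scaffold of the core complex, had 10.1, 7.36 and 8.01 CPM in the initial and 6.81, 6.2 and 6.65 CPM in the final wild type. The knock-out had 8.20, 9.15 and 9.06 CPM initially and 9.81, 8.88 and 7.58 CPM finally. The final wild-type libraries were the 3 lowest. The final difference of 0.42 (SE 0.13, adjusted p 0.0331) was the largest of the genotype comparisons, at a low level of 2.27 CPM per kb. It was lost without the final wild-type replicate 2 or 3, the initial knock-out replicate 3, or the final knock-out replicate 1 or 2 (adjusted p 0.0508 to 0.153). FANCA, FANCC, FANCE, FANCF, FANCG, the ubiquitin ligase FANCL, the translocase FANCM and UBE2T did not pass, with values from -0.23 to 0.18 at the initial and from -0.04 to 0.24 at the final harvest. The smallest adjusted p among these 8 at the final harvest was that of FANCG, at 0.22 (SE 0.09, adjusted p 0.111).

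FANCD2 and FANCI, the substrates of the core complex, and BRIP1 did not pass in any comparison in edgeR. FANCD2 had 0.01 and 0.16, FANCI had 0.01 and 0.17, and the helicase BRIP1 (FANCJ), which binds BRCA1, had -0.17 and 0.02 at the initial and final harvest. Over time in the wild type BRIP1 had -0.30 in edgeR, while DESeq2 called it lower (-0.305, adjusted p 0.0297), as did edgeR after GC and length correction (adjusted p 0.0254). In the final harvest the knock-out libraries of FANCI, with 189.6, 187.5 and 183.3 CPM, were above the wild-type libraries, with 177.8, 152.8 and 167 CPM (adjusted p 0.151).

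Of 6 nucleases and scaffolds that cut crosslinks and joint molecules, ERCC4, SLX4 and EME1 passed in some comparison. ERCC4 (ENSG00000175595.16, chromosome 16, 13920138 to 13952348, plus strand), the catalytic subunit of the XPF-ERCC1 nuclease, had 14.97, 13.2 and 14.4 CPM in the initial and 11.1, 13.1 and 13.1 CPM in the final wild type. The knock-out had 15.97, 16.4 and 15.1 CPM initially and 15.1, 14.4 and 13.99 CPM finally. The knock-out was above the wild type without overlap at both harvests. The difference passed only in the averaged comparison (0.19, SE 0.07, adjusted p 0.0423) and was lost without any one of 9 libraries, which were all except the initial wild-type replicate 1 and the final wild-type replicates 2 and 3 (adjusted p 0.0507 to 0.104). It was also lost with no filter (0.145).

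SLX4 and EME1 passed only over time in the wild type and are described with that comparison. SLX4, a scaffold for nucleases, had genotype log2 fold changes of -0.28 (adjusted p 0.122) and 0.02 at the initial and final harvest. EME1, the partner of MUS81, had -0.13 and 0.33 (adjusted p 0.0653). The final difference of EME1 was called with no filter (adjusted p 0.0248), the replicate block (0.0304) and GC and length correction (0.0469). It was also called without the initial (0.0478) or the final (0.00285) wild-type replicate 1. SLX4 was called lower initially after GC and length correction (0.046). MUS81 had -0.10 and -0.12, the Holliday junction resolvase GEN1 had -0.13 and 0.31, and FAN1 had -0.10 and -0.09. GEN1 had the highest within-group coefficient of variation of the set, 15.8%, with initial wild-type libraries at 75.0, 46.6 and 57.6 CPM.

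Of the 4 genes of end sensing and resection, RBBP8 and NBN passed as lower in the knock-out on average, and MRE11 and RAD50 had averaged values of -0.08 and -0.04. RBBP8 (ENSG00000101773.19, chromosome 18, 22798261 to 23026488, plus strand), which activates the MRE11 nuclease to open resection, had 95.1, 115 and 103 CPM in the initial and 96.9, 114 and 118 CPM in the final wild type. The knock-out had 82.8, 86.9 and 94.7 CPM initially and 86.9, 78.8 and 92.0 CPM finally. The knock-out was below the wild type without overlap at both harvests. RBBP8 differed by -0.24 on the log2 scale (SE 0.10, adjusted p 0.0916) initially, by -0.35 (SE 0.10, adjusted p 0.0174) finally and by -0.30 (SE 0.07, adjusted p 0.00337) on average. The averaged call held in all 19 alternatives (adjusted p up to 0.0127), and the final call was lost without the final wild-type replicate 2 or 3 or the final knock-out replicate 2 (adjusted p 0.0656 to 0.0849).

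NBN (ENSG00000104320.14, chromosome 8, 89933331 to 90003228, minus strand), the subunit of the MRE11 complex that recruits ATM, had 83.7, 85.7 and 92.5 CPM in the initial wild type against 70.6, 76.5 and 73.8 CPM in the initial knock-out, without overlap. The final libraries overlapped, with 79.9, 87.1 and 91.1 CPM in the wild type and 87.7, 77.4 and 77.2 CPM in the knock-out. The difference of NBN was -0.25 (SE 0.08, adjusted p 0.0412) initially and -0.17 (SE 0.06, adjusted p 0.0344) on average. After GC and length correction the adjusted p-values were 0.122 and 0.0881, and with no filter 0.104 and 0.0812. The initial call was also lost without the initial wild-type replicate 3, the final wild-type replicate 2 or 3, any one of the initial knock-out libraries or the final knock-out replicate 3 (adjusted p 0.0533 to 0.167). The averaged call was lost without those libraries except the initial knock-out replicate 2, and also without the final knock-out replicate 2 (adjusted p 0.0639 to 0.0935). MRE11 had -0.31 and 0.15 at the initial and final harvest and RAD50 had -0.17 and 0.10, neither of which passed. MRE11 ran from 36.7 to 55.1 CPM within the initial wild type.

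Among the checkpoint kinases, ATR passed in the averaged comparison. ATR (ENSG00000175054.16, chromosome 3, 142449007 to 142578733, minus strand), the kinase that responds to single-stranded DNA at stalled forks, had 92.0, 68.9 and 77.6 CPM in the initial and 93.0, 79.9 and 86.3 CPM in the final wild type. The knock-out had 91.3, 92.4 and 92.4 CPM initially and 106, 106 and 95.7 CPM finally. The groups overlapped at the initial harvest through the initial wild-type replicate 1 and did not overlap at the final harvest. ATR differed by 0.21 (adjusted p 0.143) initially, by 0.25 (adjusted p 0.0892) finally and by 0.23 (SE 0.07, adjusted p 0.0176) on average. The averaged call was lost without the initial wild-type replicate 3 (adjusted p 0.0532) or the final wild-type replicate 2 (0.0535). ATM had -0.11 and 0.20, CHEK1, the kinase activated by ATR, had -0.24 and -0.05, and CHEK2, activated by ATM, had 0.10 and 0.05, and none of these 3 passed. CHEK2 was the steadiest gene of the set, with a within-group coefficient of variation of 2.93%.

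Of the proteins that decide between repair routes, TP53BP1 passed at the initial harvest. TP53BP1 (ENSG00000067369.14, chromosome 15, 43403061 to 43510728, minus strand), which shields DNA ends from resection, had 142, 128 and 139 CPM in the initial wild type and 114, 114 and 109.5 CPM in the initial knock-out, without overlap. At the final harvest it had 137, 114.5 and 121 CPM in the wild type and 126, 128 and 127 CPM in the knock-out. The difference of TP53BP1 was initially -0.28 (SE 0.08, adjusted p 0.0196) and finally 0.04 (adjusted p 0.811). The initial call was lost without the initial wild-type replicate 1 or 3 or any one of the initial knock-out libraries (adjusted p 0.0585 to 0.083). TUBGCP4, a gamma-tubulin complex gene on the other strand over 28.8% of its exon bases, had 0.04 initially (adjusted p 0.77) and 0.28 finally (adjusted p 0.00856), and its part in the values of TP53BP1 was not tested. RIF1, which acts with TP53BP1, had -0.15 and 0.13, and POLQ, the polymerase of theta-mediated end joining, had -0.12 and 0.06, and neither passed.

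Over the 2 months of culture, 37 of the 46 genes had log2 fold changes below 0 in the wild type, with a median log2 fold change of -0.15, against a median of 0.01 over all tested genes, 51.1% of which were above 0. The 5 genes that passed (10.9%) were all lower: RAD54L, XRCC2, SLX4, RAD51D and EME1 (DESeq2 called 6, with BRIP1), where 6.47% of all tested genes passed, 3.42% as lower and 3.05% as higher. RAD54L fell by 0.52 on the log2 scale (SE 0.08, adjusted p 0.000561) and XRCC2 by 0.39 (SE 0.09, adjusted p 0.0143). RAD51D fell by 0.31 (SE 0.08, adjusted p 0.0389). SLX4 (ENSG00000188827.11, chromosome 16, 3581181 to 3611606, minus strand) went from 33.5, 31.0 and 30.6 CPM to 27.1, 20.2 and 21.1 CPM, a fall of 0.48 (SE 0.12, adjusted p 0.0253). EME1 (ENSG00000154920.15, chromosome 17, 50373220 to 50381483, plus strand) went from 54.7, 50.04 and 47.2 CPM to 46.2, 34.4 and 33.1 CPM, a fall of 0.42 (SE 0.12, adjusted p 0.0446). The initial and final libraries of these 5 genes did not overlap, which held for 13 of the 46 genes, all lower in the final harvest (11.4% of all tested genes were lower without overlap).

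The number of genes called over time in the wild type moved with single libraries. It was 1 without the initial wild-type replicate 3 or the final wild-type replicate 2 (RAD54L in both), 2 without the initial wild-type replicate 1 or the final wild-type replicate 3, 3 without any one of the initial knock-out libraries or the final knock-out replicate 3. It was 8 when the initial wild-type replicate 2 or the final wild-type replicate 1 was left out. It was also 2 when only the wild-type libraries were fitted. The median was -0.09 without the initial wild-type replicates 1 and 2. Without the initial wild-type replicates 1 and 2 together it was 0, and RAD54L, which passed in the other 19 alternatives, had an adjusted p of 0.0518. XRCC2 was lost without the initial wild-type replicate 3 (adjusted p 0.0521) and the final wild-type replicate 2 (0.0757). SLX4 was lost without the initial wild-type replicate 1 or 3 or the final wild-type replicate 2 or 3 (adjusted p 0.0587 to 0.145). RAD51D was lost without these 4 libraries, any one of the initial knock-out libraries or the final knock-out replicate 3 (0.0509 to 0.181). EME1 was lost without any one of those 8, the initial wild-type replicate 2 or the final knock-out replicate 1 (0.0529 to 0.217).

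In the knock-out 0 of the 46 genes passed over time in edgeR and 0 in DESeq2, where 1.48% of all tested genes passed in edgeR (0.837% higher). At an unadjusted p under 0.05 there were 5 genes (10.9%), against 14.9% of all tested genes. The median log2 fold change was 0.03, with 24 genes above 0, and -0.02 without the final knock-out replicate 1. XRCC3 had the smallest unadjusted p, with -0.28 (SE 0.10, adjusted p 0.171), and its knock-out libraries of both harvests did not overlap. BRCA1 had 0.21 (SE 0.07, adjusted p 0.182) and RAD54L had -0.19 (SE 0.08, adjusted p 0.262). Group ranges did not overlap in 11 genes, 6 higher and 5 lower (23.2% of all tested genes in either direction).

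**Figure D4:**
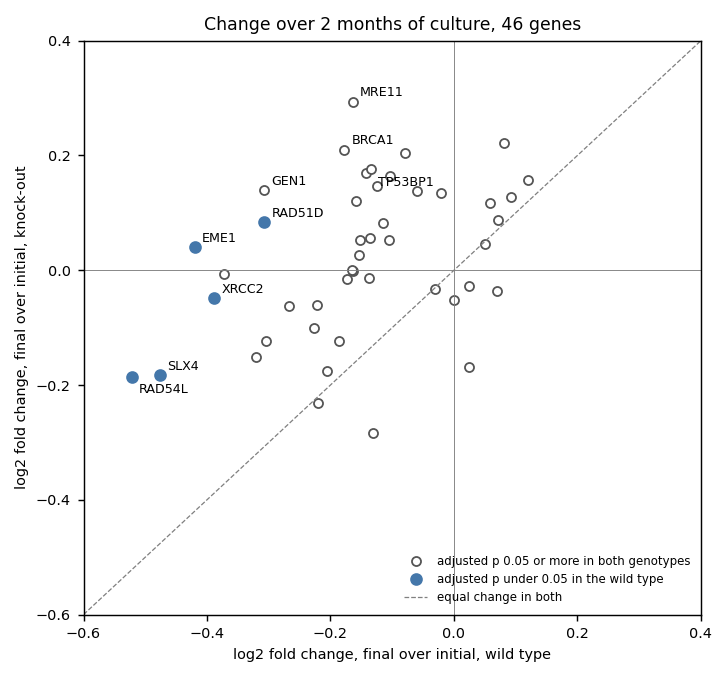
Log2 fold change of the final over the initial harvest in the wild type (horizontal axis) and in the knock-out (vertical axis) for the 46 genes, with names for genes that passed in the wild type or had an unadjusted interaction p under 0.05. Most points lie left of 0 and above the dashed line of equal change, and the 5 filled points, which passed in the wild type, lie between -0.52 and -0.31 on the horizontal axis.

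Whether culture time acted differently in the genotypes was tested with the interaction of genotype and harvest. None of the 46 genes passed in edgeR, where 1.28% of all tested genes did (0.809% higher). At an unadjusted p under 0.05 there were 8 (17.4%, against 12.3% of all tested genes), and DESeq2 called 1, BRCA1 (adjusted p 0.0207). The 8 were BRCA1, RAD51D, RAD54L, TP53BP1, EME1, XRCC2, MRE11 and GEN1, all with a positive difference, that is, a change over time that was higher in the knock-out. EME1 (log2 difference 0.46, SE 0.17, adjusted p 0.249) and MRE11 (0.46, SE 0.20, adjusted p 0.363) had the largest values. Without the final wild-type replicate 1, BRCA1 (adjusted p 0.0497) and EME1 (0.0282) passed. The median over the 46 genes was 0.17, with 38 above 0, against 0.01 over all tested genes, 50.7% of which were above 0. That median was 0.12 without the initial wild-type replicate 1 and 0.09 after GC and length correction.

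The libraries of the initial wild type differed among themselves along gene length, and so did those of the other groups. When the 46 genes were split at their median deposited length, 20 of the 23 longer genes were higher in the initial wild-type replicate 1 than in replicate 2 (median difference 0.15 on the log2 scale), against 9 of the 23 shorter genes (-0.04), and the median over all tested genes was 0.03. Spearman's correlation of this difference with length was 0.48 over the 46 genes and 0.20 over all tested genes, as a description of 2 libraries. With GC content it was -0.42 over the 46 genes. Deviations of single libraries from the mean of 12 correlated with length at 0.34, -0.44 and 0.23 in the initial wild type. The values were 0.34, -0.20 and -0.18 in the final wild type. In the knock-out they were 0.09, -0.15 and -0.38 initially and 0.09, 0.47 and -0.26 finally. The final knock-out replicate 1 had -0.72 with GC content. The interaction was above 0 in all 23 longer genes (median 0.20) and in 15 of the 23 shorter genes (median 0.13). The change over time in the wild type was below 0 in 21 longer genes (median -0.16) and 16 shorter genes (median -0.12). The part of gene length and of GC content in these changes was not tested. The medians of the 46 genes were 0.12, 0.07 and 0.05 in the 3 initial wild-type libraries and -0.03, -0.12 and -0.08 in the 3 final ones, relative to the mean of 12 libraries. In the knock-out they were 0.02, -0.01 and -0.02 initially and 0.04, 0.03 and -0.05 at the final harvest, so that the wild-type harvests did not overlap and the knock-out harvests did.

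**Figure D5:**
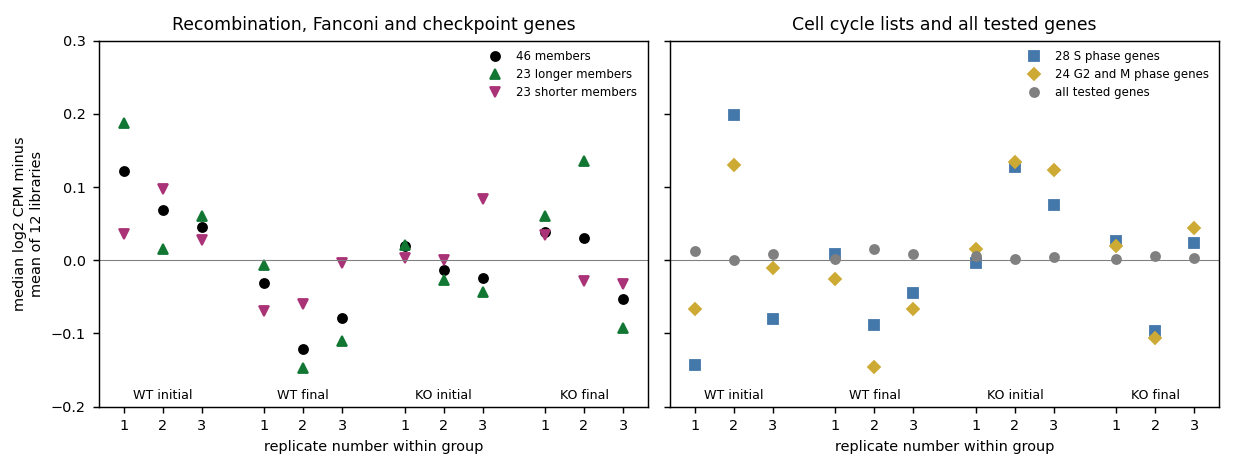
Median log2 CPM of each gene list in each library, relative to the mean of the 12 libraries, for the 46 genes and their 23 longer and 23 shorter members (left) and for cell cycle lists and all tested genes (right). The 46 genes are above 0 in the 3 initial wild-type libraries and below 0 in the 3 final ones, and the S phase list ranges from -0.14 to 0.20 within the initial wild type.

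Cell cycle genes were set beside these values because many recombination genes are transcribed with the cell cycle. Of 28 S phase genes, 0 passed over time in the wild type in edgeR (3 at an unadjusted p under 0.05), with a median of -0.06, and 0 in the knock-out (2 unadjusted), with a median of -0.09. Of 24 G2 and M phase genes, 0 passed in either genotype over time (4 and 2 unadjusted), with medians of -0.08 and -0.07. In the averaged genotype comparison 3 S phase genes were higher and 1 was lower (median 0.05), and 5 G2 and M phase genes were higher (median 0.07), where 14.0% of all tested genes were higher and 16.1% lower. The S phase median differed between libraries of the initial wild type, with -0.14, 0.20 and -0.08. The part of cell cycle composition in the changes of the 46 genes was not tested.

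The wider pathway was described with a list of 65 partners that are not among the 46 genes, of which 62 were tested. In the averaged genotype comparison 11 were higher and 3 were lower in the knock-out, beside 14.0% and 16.1% of all tested genes. The smallest adjusted p-values were those of DCLRE1A, a crosslink repair nuclease (-0.43, SE 0.06, adjusted p 1.74e-05), CDC25A, the phosphatase that CHEK1 opposes (0.36, SE 0.06, adjusted p 0.000261), and FIGNL1, an ATPase of recombination (-0.32, SE 0.06, adjusted p 0.000312). Over time 3 partners were lower in the wild type, with a median of -0.01, and 0 passed in the knock-out (6 at an unadjusted p under 0.05). Of all tested genes 3.42% were lower over time in the wild type. In the knock-out 14.9% of all tested genes had an unadjusted p under 0.05. Among 13 genes of end joining, XRCC4, the partner of DNA ligase IV, rose from 34.8 and 27.8 CPM in the initial and final wild type to 53.4 and 43.9 CPM in the knock-out, 0.64 on average (SE 0.07, adjusted p 4.37e-06). PRKDC, the catalytic subunit of DNA-PK, was also higher (0.22, SE 0.07, adjusted p 0.022). Thus 2 of the 13 genes were higher and 0 were lower, beside 14.0% and 16.1% of all tested genes. The median over the 13 genes was 0.015.

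Targets of p53, a factor that ATM and CHEK2 activate after damage, were described beside the checkpoint genes. Activity of the checkpoint was not measured, and its part in the values of these targets was not tested. Of 22 targets, 13 were higher and 1 was lower in the averaged comparison, with a median of 0.33, where 14.0% of all tested genes were higher and 16.1% lower. SESN1 (0.66, SE 0.07, adjusted p 1.51e-06) and the damage sensor DDB2 (0.52, SE 0.05, adjusted p 1.31e-06) were higher, while GADD45A, a growth arrest gene, was lower (-0.59, SE 0.06, adjusted p 6.14e-07). Over time 3 targets were higher in the wild type (median 0.23, with 3.05% of all tested genes higher), and in the knock-out 1 was lower (median -0.06, with 0.640% of all tested genes lower).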

How the data were processed

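RNA-seq read counts per gene were deposited by the authors as raw, unnormalized counts, 1 column per library. STAR, featureCounts, Subread and the build hg38 are named in the submitters' processing notes without versions; strand setting, annotation release and multi-mapping reads are not given in the sources used here. A gene broken over 5 lines was left out; symbols were found for 60462 of 60648 genes. Counts were filtered with filterByExpr by group, TMM-scaled and fitted in edgeR 4.0.16 (R 4.3.3, limma 3.58.1) as 1 robust quasi-likelihood model of 12 libraries with 4 group means; 6 contrasts were tested, with Benjamini-Hochberg adjustment over 18289 genes and a threshold of 0.05. The code was tested on simulated data. Alternatives were RLE and upper quartile factors, no filter, DESeq2 1.42.0, a replicate block, only the groups compared, each library left out and, chosen after seeing the data, GC and length correction (lowess, span 0.3, for 18036 genes) and leaving out the initial wild-type replicates 1 and 2. Every member is named; library values are given for the 13 that passed in any contrast, and at most 3 genes per wider list, by smallest adjusted p. Members and lists were chosen with earlier results of these data known. Proteins are not shown.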

Additional observations from a re-analysis of the deposited data

How the results depend on the processing

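Of the 21 gene calls above, RLE factors and DESeq2 kept 21 each, GC and length correction 19, upper quartile factors 19, the replicate block 17 and no filter 15, and only the groups compared kept 10 of 14; none changed sign under any alternative run. The counts of genes called ran from 0 to 8 (initial genotype comparison), 2 to 8 (final), 4 to 10 (averaged), 1 to 8 (time, wild type), 0 to 0 (time, knock-out) and 0 to 2 (interaction) with each library left out. GC and length correction gave 5 genes in the initial and 11 in the averaged genotype comparison and 8 over time in the wild type, and it moved the medians of the 46 genes to 0.047, 0.111, -0.125, 0.064, 0.026, 0.023 and 0.007 in the initial wild-type replicates 1 and 2, the final wild-type replicate 3, the initial knock-out replicates 1, 2 and 3 and the final knock-out replicate 3. Upper quartile factors gave 3 and only the groups compared 2 genes over time in the wild type. DESeq2 gave 1 in the interaction. Leaving out the initial wild-type replicates 1 and 2 together left 0 in the initial genotype comparison and 0 over time in the wild type; the lone library was then assumed to vary like the other groups. The cause was not tested. With the replicate block the counts were 2, 7, 5, 5, 0 and 0 in the 6 comparisons in that order. The block lost the averaged ERCC4 (adjusted p 0.0626), both NBN calls (0.0593 initially, 0.0509 on average) and RAD51D over time (0.0554), and called BRIP1 over time in the wild type (0.0468). Same-numbered libraries of different groups had correlations of -0.36 to 0.24 in their deviations from the group means (18 pairs, median 0.04). For differently numbered libraries they were -0.43 to 0.39 (36 pairs, median -0.02). The labels do not say that a number marks a shared day or batch, so the numbers were not taken as pairing.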
